A study of Mus musculus with 18 samples.

Results

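The genes described here make, sense and move cholesterol. Of 32 listed symbols, 30 had a probe set named for that gene alone on the array, out of 18193 genes with such a set. They were 7 genes of the mevalonate and isoprenoid steps, 11 genes from squalene to cholesterol, 5 genes of control and 7 genes of sterol transport. The expression of Acat2 and Soat1, also listed, was not analysed here. The list was written from gene function, with earlier results of these data known. All 30 genes passed the filter on low values in both tissues. In kidney that filter let through Abcg5 and Abcg8, which read 2.24 to 2.48 and 2.46 to 3.11 there, near the lowest value of the arrays. Kidney counts out of 30 include both.

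Cells build cholesterol in the endoplasmic reticulum from acetyl-CoA, by way of mevalonate, isoprenoid diphosphates, squalene and lanosterol. The transcription factor SREBP2 switches these genes on together when membrane sterol is low. Its escort protein Scap carries it to the Golgi for cleavage, and the Insig proteins hold Scap back when sterol is plentiful. The liver is a main site of this synthesis and the organ that sends surplus sterol into bile.

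The mice were C57BL6 males given either saline or the hepatotoxic amino sugar D-galactosamine (GalN) at 4.5 g/kg into the peritoneum. Both organs of the GalN mice were collected at 24 h or at 48 h, and those of the saline mice (sham) at 24 h. Each of the 6 groups of organ and condition had 3 arrays, A, B and C. The animals carried no genetic change that the labels name, and the organs were perfused in place before RNA was isolated from whole tissue. Sham organs were taken at 24 h alone, so each 48 h difference also holds a difference in time after injection. The study asked about kidney dysfunction when the liver is massively necrotic.

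Values are log2 gcRMA expression values, on which a difference of 1 is 2-fold, and arrays have no read depth. A gene was called when its limma p-value, adjusted by Benjamini-Hochberg over all genes tested in that comparison, was under 0.05. Differences are given ± the standard error (SE) of the fit, with n = 3 arrays in each group. The labels do not settle whether an array holds the RNA of 1 mouse or of a pool of 3, so n counts arrays and p-values measure the spread between these arrays, which may be technical. Whole tissue was measured, and fewer cells of a type cannot be told apart from less RNA per cell.

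The tissues matched their labels: all 7 hepatocyte markers were called higher in sham liver than in sham kidney, and all 6 proximal tubule markers lower. Of these, the hepatocyte genes Cps1, F2 and Ahsg lay at the floor of the array in kidney. The proximal tubule genes Slc34a1, Lrp2, Cubn and Slc22a8 did so in sham liver. The other markers did not, and the summed hepatocyte level in sham kidney was 16.17 to 16.46. The floor was taken as less than 1 above the lowest value of 2.21. Within a group, the arrays' values over all sets had an r of 0.983 to 0.998. The liver 48 h array C stood apart in the actin and Gapdh control sets. Its gap between 3′ and 5′ sets was 2.56 in actin, against 1.48 to 1.86 in sham livers, and 0.81 in Gapdh, against 0.27 to 0.33. Its actin 3′ level was 12.58, against 14.66 to 14.87. This array gave the lowest 48 h liver reading in 9 of 12 control and transport genes and in 6 of 18 synthesis genes. It did so in 4397 of 10072 genes above the floor. The summed level of 15 macrophage markers lay at 13.37 to 13.98 in sham liver, at 14.78 to 14.96 at 24 h and at 14.55 to 14.68 at 48 h, and 9 and 5 of the 15 were higher than sham (17.9% and 6.24% of all genes tested in liver were). The summed level of 7 hepatocyte markers lay at 18.45 to 18.52, 18.40 to 18.48 and 18.11 to 18.26, with 1 of 7 lower at 24 h and 5 of 7 lower at 48 h (15.0% and 3.94% of all genes were). In the endothelial list, 4 of 6 were higher at 24 h and 1 of 6 at 48 h. In the stellate cell list Des was at the floor, 1 of 5 was higher at 24 h, and at 48 h Lrat came nearest (1.29, adjusted p = 0.116), with median differences of 0.69 and 1.18 and summed levels of 9.87 to 11.70 in sham, 10.75 to 11.63 at 24 h and 10.45 to 12.19 at 48 h. None of the macrophage markers was at the floor in liver, and the part of these cell lists in the results below was not tested.

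Promoter sequence was available from RefSeq (GRCm38.p6) for 25 of the 32 listed genes, as the 250 bases before each of their 33 annotated starts. SREBP2 binds sterol regulatory elements, usually beside a CCAAT box, the site of the factor NF-Y, or a GC box, the site of Sp1. The 3 promoters below belong to synthesis genes that fell by more than 3 on the log2 scale in liver at 24 h. Each is written on the strand of its gene and ends at the base before the start. Dhcr7 also fell by more than 3 and is not shown: its 3 windows hold 0, 0 and 2 CCAAT boxes. Fdft1 and Fdps did too, but had no promoter sequence. Capitals mark CCAAT boxes in either orientation (CCAAT or its complement ATTGG) and, in Hmgcs1, the sterol regulatory element.
Hmgcs1, chr13:119690101-119690350, plus strand: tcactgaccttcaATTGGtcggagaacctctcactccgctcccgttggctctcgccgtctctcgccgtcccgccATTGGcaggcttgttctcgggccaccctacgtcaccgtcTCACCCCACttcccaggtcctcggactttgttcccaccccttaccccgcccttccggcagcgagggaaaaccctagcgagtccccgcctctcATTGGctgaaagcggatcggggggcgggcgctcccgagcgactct
Idi1, chr13:8885356-8885605, plus strand: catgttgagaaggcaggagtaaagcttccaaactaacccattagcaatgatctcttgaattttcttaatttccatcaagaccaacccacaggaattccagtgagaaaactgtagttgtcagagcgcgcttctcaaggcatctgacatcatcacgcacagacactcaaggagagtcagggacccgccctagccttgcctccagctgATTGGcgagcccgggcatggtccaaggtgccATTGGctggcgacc
Msmo1, chr8:64733579-64733828, minus strand: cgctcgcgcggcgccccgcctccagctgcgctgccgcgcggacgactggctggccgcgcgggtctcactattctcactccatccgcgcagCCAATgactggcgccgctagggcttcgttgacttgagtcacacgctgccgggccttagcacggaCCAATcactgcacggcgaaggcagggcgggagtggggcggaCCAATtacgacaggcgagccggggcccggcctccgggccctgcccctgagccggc

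The element TCACNCCAC, searched on both strands, was found once, in Hmgcs1, where TCACCCCAC begins 137 bases before the start. It occurs in 1.05% of the 32851 mouse promoters searched in windows of the same length. A CCAAT box stood in 20 of the 33 promoters, against 33.8% of all promoters, and in at least 1 promoter of 15 of the 16 synthesis genes with an entry, Acat2 being the one without. The GC box GGGCGG stood in 21 of the 33, against 32.7%. These matches describe letters in a short window, and a window without a match says nothing about binding.

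In sham organs, most of these genes were expressed more strongly in liver than in kidney. Of the 30 genes, 24 were higher in sham liver (18.9% of the 12467 genes tested were), 2 were lower (28.7% of genes) and 4 were not called. The median difference was 2.24, against -0.05 over all genes tested. Scarb1, the HDL receptor that takes up cholesteryl ester, read 11.92, 12.11 and 12.51 in sham liver and 7.07, 6.80 and 6.01 in sham kidney, a difference of 5.55 ± 0.24. Fdps, farnesyl diphosphate synthase, was higher by 5.27 ± 0.59 and Dhcr7, the reductase of the final step to cholesterol, by 4.40 ± 0.31. Abcg5 and Abcg8, which together form the transporter that pumps sterol into bile, were at the floor in all 9 kidney arrays, so their differences of 8.90 and 6.70 are lower bounds. The pair lower in liver were Ggps1, which makes geranylgeranyl diphosphate, with a difference of -2.55 ± 0.21, and Mvd, mevalonate diphosphate decarboxylase, with -1.90 ± 0.61. The Mvd call was lost without liver sham C, where the difference was -0.96 (adjusted p = 0.062), or kidney sham A (0.0526). Among the higher genes, Idi1, Nsdhl and Sqle were lost in 4, 4 and 13 of the 18 fits that left out 1 array. Hmgcs1, Cyp51, Srebf2 and Abcg1 differed by between -0.52 and 0.02 and were not called. With the mean of all its probe sets, Cyp51 was higher in liver by 0.65 (adjusted p = 0.0174).

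The sham livers differed among themselves in the synthesis genes. Array A was the highest and array C the lowest in 16 of the 18, an order held by 23.2% of the 9992 genes that lay above the floor in all 3 arrays. The median range over the 3 arrays was 1.06 for the synthesis genes and 0.39 for those genes as a whole. Mvd was the most spread, at 7.81, 6.48 and 4.32, and Cyp51 the least, at 11.54, 11.47 and 11.45. Ggps1 ran the other way, at 6.42, 6.76 and 7.08. In sham kidney, A was again highest and C lowest in 13 of 18 synthesis genes, against 23.6% of 10267 genes, with a median range of 0.44 against 0.26. Whether a letter names the same mouse in both organs is not stated. The actin gap was largest in array C among the sham arrays of each organ, at 1.86 in liver and 2.02 in kidney, and its part in this order was not tested. Of the 12 control and transport genes, 3 had this order in sham liver and 6 in sham kidney.

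**Figure D1:**
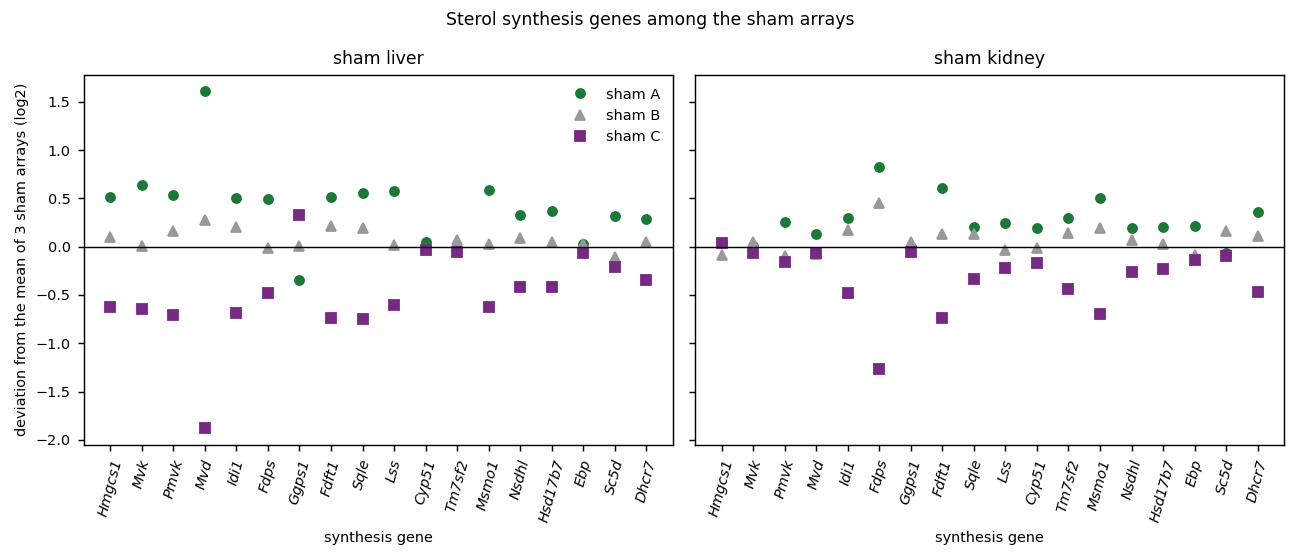
Deviation of each of the 18 synthesis genes from the mean of the 3 sham arrays (log2), in sham liver (left) and sham kidney (right), with 1 symbol per array. Array A lies above array C for nearly all genes in liver, where Mvd spans 3.49, and for most genes in kidney.

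At 24 h after GalN, liver held far less RNA of sterol synthesis genes than sham liver. Of the 30 genes, 22 fell (15.0% of the 12071 genes tested fell), 1 rose (17.9% rose) and 7 were not called. The median difference was -2.37, against 0.00 over all genes tested, and 28 of 30 differences were negative, against 48.1% of genes tested. In 22 of the 30, every 24 h array lay below every sham array, which held for 22.5% of genes tested. By role, 14 of 18 synthesis genes, 3 of 5 control genes and 5 of 7 transport genes fell. All 9 liver arrays entered this fit.

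In the mevalonate steps, 5 of 7 genes fell and 1 rose. Hmgcs1, which makes the HMG-CoA that feeds mevalonate, read 14.87, 14.46 and 13.73 in sham liver and 11.18, 11.29 and 11.23 at 24 h, a fall of 8.69-fold (-3.12 ± 0.38, adjusted p = 0.00117). The 24 h arrays lay close together and the groups did not overlap. Idi1, the isomerase of isopentenyl diphosphate, went from 14.42, 14.12 and 13.23 to 9.80, 8.84 and 9.39, the largest change among the 30 genes by the set chosen for each, at 24.0-fold (-4.58 ± 0.49, adjusted p = 7.54e-04). Fdps, the next enzyme, went from 13.53, 13.04 and 12.56 to 9.99, 7.82 and 8.24 (-4.36 ± 0.61, adjusted p = 0.00207), and array A stayed above the other 24 h arrays. Pmvk, phosphomevalonate kinase, read 10.49, 10.11 and 9.24 in sham and 7.65, 7.31 and 7.31 at 24 h (-2.52 ± 0.30, adjusted p = 0.0011). Its last pair of readings is identical, which narrows the spread that the test sees.

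Mvk, mevalonate kinase, went from 8.99, 8.36 and 7.70 to 7.12, 6.77 and 6.26 (-1.63 ± 0.41, adjusted p = 0.0208), and its second probe set gave -3.63 (adjusted p = 0.00197). Its call was lost without sham A, sham B, 24 h B or 24 h C, with adjusted p from 0.0535 to 0.0698. Mvd read 7.81, 6.48 and 4.32 in sham and 3.40, 3.63 and 4.74 at 24 h, so the groups overlapped and the difference of -2.28 ± 0.83 was not called (adjusted p = 0.0739). Ggps1 was the one gene that rose, from 6.42, 6.76 and 7.08 to 7.46 in each of the 3 arrays (0.70 ± 0.19, adjusted p = 0.0257). Those 3 readings are identical to the last digit, so its p-value may rest on too small a spread. Its call was lost without sham A or B or any 1 of the 24 h arrays, with adjusted p from 0.0593 to 0.0716, and under median centring and quantile normalization.

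From squalene to cholesterol, 9 of 11 genes fell and none rose, the other two being Sqle and Tm7sf2. Dhcr7 read 12.63, 12.38 and 11.99 in sham liver and 7.71, 7.85 and 8.16 at 24 h, a 21.5-fold fall (-4.42 ± 0.26, adjusted p = 1.09e-04). The gap between its groups was far wider than the spread within either. Msmo1, the C4 sterol methyl oxidase, went from 13.98, 13.42 and 12.77 to 9.81, 10.35 and 10.32 (-3.23 ± 0.40, adjusted p = 0.00125). Fdft1, squalene synthase and the first enzyme committed to sterols, went from 12.89, 12.59 and 11.63 to 9.65, 9.12 and 9.04 (-3.10 ± 0.32, adjusted p = 6.95e-04). Nsdhl, a sterol dehydrogenase that acts beside Msmo1, went from 12.04, 11.80 and 11.29 to 9.74, 8.37 and 8.24 (-2.93 ± 0.40, adjusted p = 0.00191), with array A again the highest at 24 h.

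Lss, which closes the sterol rings to give lanosterol, went from 11.44, 10.88 and 10.26 to 8.42, 8.05 and 7.93 (-2.72 ± 0.33, adjusted p = 0.00114). Sc5d, the sterol C5 desaturase, went from 13.84, 13.42 and 13.31 to 10.95, 10.99 and 10.62 (-2.67 ± 0.20, adjusted p = 2.21e-04), while its second set gave -5.94 (adjusted p = 1.76e-04), larger than the Idi1 change. Cyp51, the lanosterol demethylase, was steady in sham at 11.54, 11.47 and 11.45 and read 9.40, 8.64 and 8.69 at 24 h (-2.57 ± 0.27, adjusted p = 6.64e-04). Hsd17b7, a 3-ketosterol reductase, went from 10.61, 10.29 and 9.82 to 8.05, 8.09 and 7.19 (-2.46 ± 0.30, adjusted p = 0.0012). None of these 4 genes overlapped between sham and 24 h.

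The other 3 genes of this stretch had differences from -0.92 to -0.02 at 24 h, and Ebp alone was called. Ebp, the sterol isomerase, read 13.44, 13.44 and 13.35 in sham and 12.35, 12.62 and 12.83 at 24 h, a fall of 1.75-fold (-0.81 ± 0.16, adjusted p = 0.00841). Sqle, squalene epoxidase, overlapped between groups, at 11.11, 10.74 and 9.81 in sham and 9.19, 9.56 and 10.14 at 24 h (-0.92 ± 0.48, adjusted p = 0.192). Tm7sf2, a sterol C14 reductase, read 12.73, 12.81 and 12.69 in sham and 12.83, 12.67 and 12.68 at 24 h. Its difference of -0.02 had a 95% interval of -0.20 to 0.17, which leaves out falls of the size seen in its neighbours in the pathway.

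**Figure D2:**
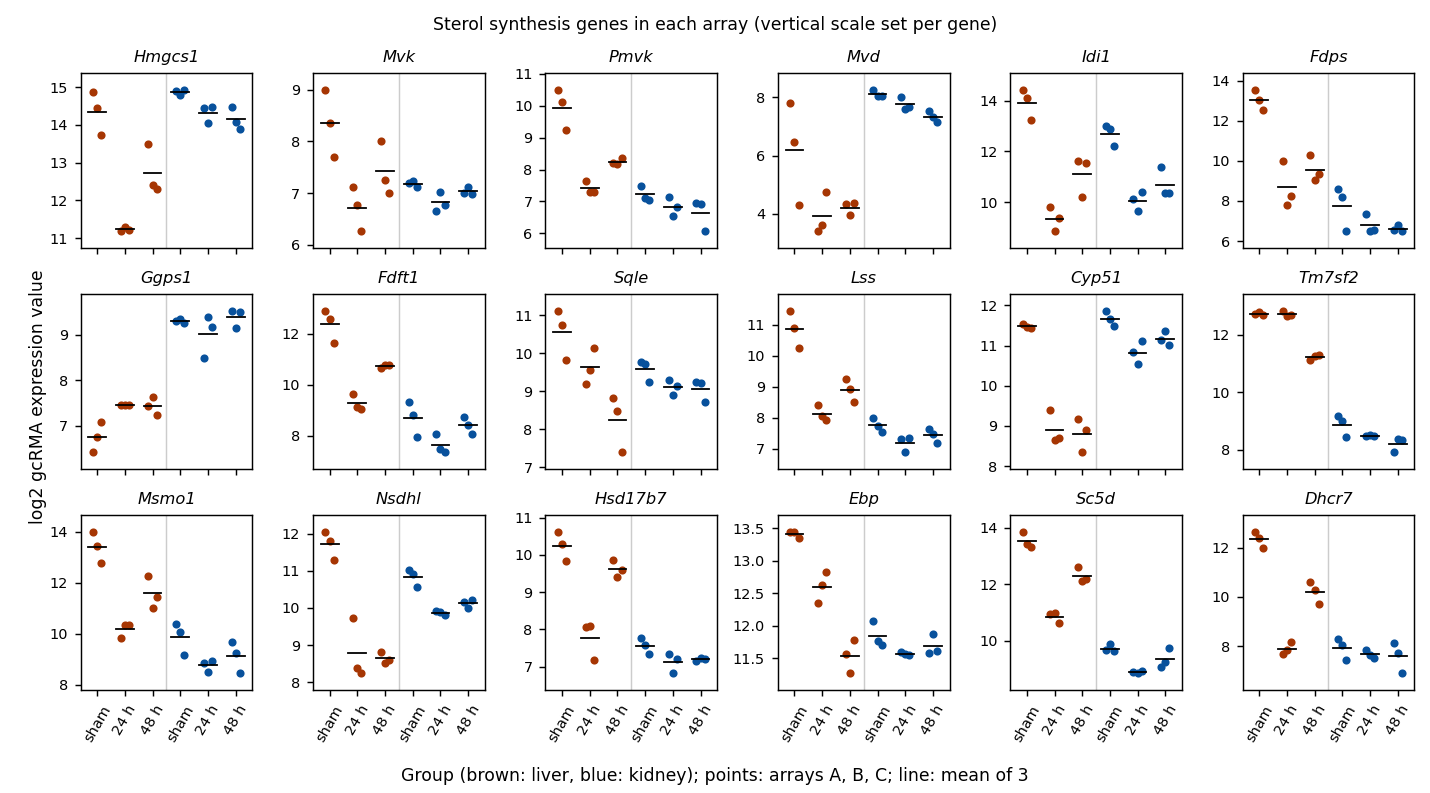
log2 gcRMA value of the 18 synthesis genes in each of the 18 arrays (points: A, B and C from left to right, liver brown, kidney blue; line: mean of 3), with a vertical scale set for each gene. In liver, most genes drop at 24 h. Of the 18, 7 were called higher at 48 h than at 24 h and 2 lower, and 6 of these differences were negative. Tm7sf2 (12.83, 12.67 and 12.68 at 24 h) drops at 48 h alone, and Ggps1 rises.

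Among the control genes, Insig1 changed most. Insig1, itself a target of SREBP2, read 13.37, 13.04 and 12.60 in sham liver and 10.09, 9.54 and 9.86 at 24 h (-3.17 ± 0.25, adjusted p = 2.51e-04). Insig2, which holds Scap back in the same way, read 12.10, 11.61 and 11.17 in sham and 11.78, 11.77 and 10.89 at 24 h, and the groups overlapped (-0.15 ± 0.34, adjusted p = 0.8). Scap went from 10.95, 11.06 and 11.22 to 10.36, 9.63 and 9.96 (-1.09 ± 0.20, adjusted p = 0.00579). Nr1h3, the oxysterol receptor LXR alpha that drives sterol export genes, went from 9.25, 9.29 and 8.95 to 8.50, 7.91 and 8.31 (-0.92 ± 0.18, adjusted p = 0.00697). The set for Srebf2, the gene of SREBP2, read low on the array in every group, at 5.03, 5.52 and 5.36 in sham and 4.87, 4.88 and 5.09 at 24 h (-0.36 ± 0.26, adjusted p = 0.347). The second Srebf2 set gave -0.69, from 4.89, 4.96 and 4.42 in sham to 3.93, 4.19 and 4.07 at 24 h, with no overlap. So the chosen set alone does not settle whether Srebf2 RNA fell. The RNA level of Srebf2 does not report the cleavage of the protein.

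Of the transport genes, Stard4, a cytosolic sterol carrier and SREBP2 target, read 11.75, 11.55 and 11.45 in sham liver and 8.37, 8.10 and 8.71 at 24 h (-3.19 ± 0.31, adjusted p = 5.69e-04). Abcg8 went from 8.88, 9.37 and 9.74 to 6.61, 7.77 and 3.99 (-3.21 ± 0.87, adjusted p = 0.0278), and array C was far below the others at 24 h. The Abcg8 call was lost without any 1 sham array or 24 h A, with adjusted p from 0.0524 to 0.0814. Its partner Abcg5 went from 11.04, 11.11 and 11.42 to 10.16, 10.58 and 10.10 (-0.91 ± 0.16, adjusted p = 0.00478), a smaller change with little spread. Scarb1 went from 11.92, 12.11 and 12.51 to 11.08, 11.36 and 11.52 (-0.86 ± 0.18, adjusted p = 0.00932).

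Npc1, which moves cholesterol out of lysosomes, went from 10.28, 11.01 and 11.21 to 9.50, 9.77 and 9.23 (-1.33 ± 0.42, adjusted p = 0.046). Its call was lost without sham B or C, any 1 of the 24 h arrays or 48 h A, with adjusted p from 0.0587 to 0.132. Abca1, which loads cholesterol onto HDL, overlapped between groups, at 11.97, 11.91 and 12.37 in sham and 11.29, 12.40 and 12.20 at 24 h (-0.12 ± 0.45, adjusted p = 0.895). Abcg1, another exporter to HDL, read 7.09, 7.70 and 7.60 in sham and 7.83, 8.03 and 8.07 at 24 h. Every 24 h reading of Abcg1 was above every sham reading, and the difference of 0.52 ± 0.22 was not called (adjusted p = 0.121).

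Abcg5 and Abcg8 lie head to head on chromosome 17. The 109 bases between the Abcg5 start and the nearer annotated Abcg8 start are shown because both genes were lower in liver at 24 h. Another annotated Abcg8 start lies inside Abcg5. Whether these bases act on both genes was not tested. The 109 bases hold no CCAAT box, but a CCAAT box ends at the base just before them and another lies farther from this nearer Abcg8 start, at 114 and 175 bases before it.
Abcg5 and Abcg8, chr17:84683012-84683120, plus strand: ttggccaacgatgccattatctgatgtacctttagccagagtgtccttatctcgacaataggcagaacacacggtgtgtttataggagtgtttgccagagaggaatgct

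**Figure D3:**
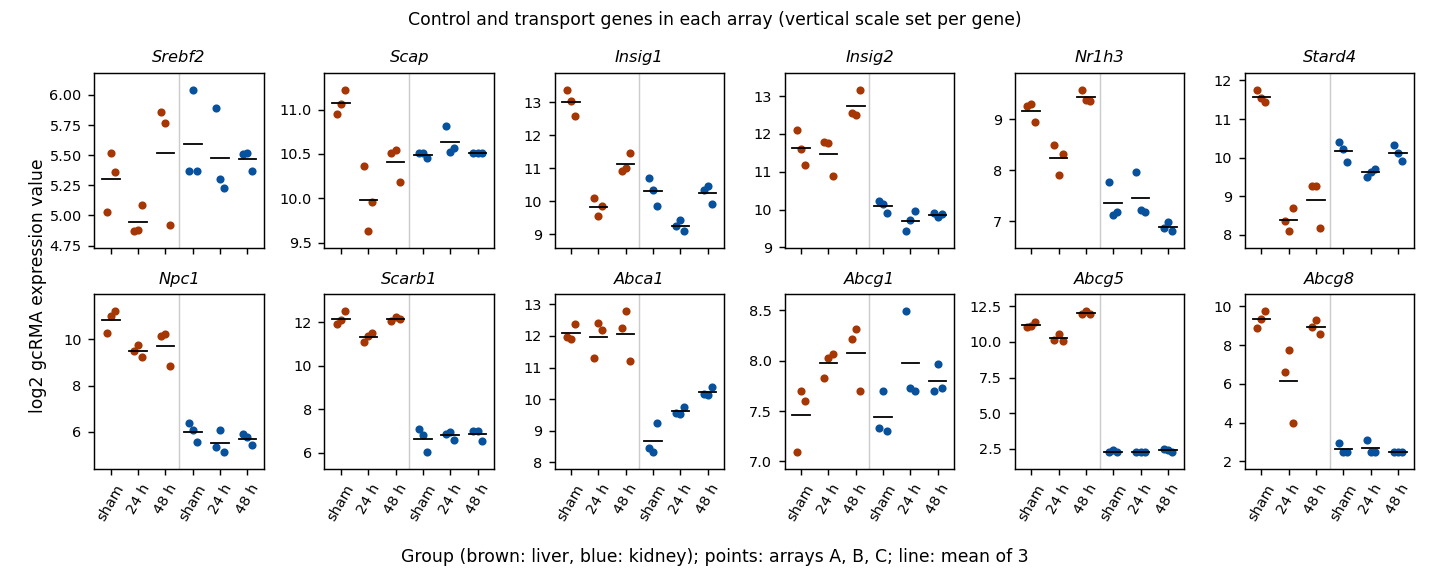
log2 gcRMA value of the 5 control and 7 transport genes in each array, drawn as for the synthesis genes. Insig1, Stard4 and Abcg8 drop in liver at 24 h, Abca1 rises in kidney, and Abcg5 and Abcg8 lie at the floor in all 9 kidney arrays.

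At 48 h after GalN, 16 of the 30 genes were lower than in sham liver (3.94% of genes tested were) and 1 was higher (6.24% were). The median difference was -1.56, against 0.03 over all genes tested. Of the synthesis genes, 14 of 18 were lower and none was higher at an adjusted p under 0.05, with 1, Ggps1, higher at an unadjusted p under 0.05 and 0 by rank product. Of the control genes 1 of 5 was lower, and of the transport genes 1 of 7. The number called ran from 8 without sham B (11 without sham A) to 19 without sham C, and it was 10 when only the 6 arrays compared were fitted. Without the liver 48 h array C, which stood apart in actin and Gapdh, 16 genes were called.

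From squalene to cholesterol 10 of 11 genes were lower at 48 h, and in the mevalonate steps 4 of 7 were. Fdps read 10.31, 9.03 and 9.35 at 48 h, with a difference of -3.48 ± 0.61 from sham (adjusted p = 0.017), a call lost without sham A or B (adjusted p = 0.0515 and 0.0613). Nsdhl read 8.82, 8.53 and 8.59, with a difference from sham of -3.06 ± 0.40 (adjusted p = 0.0079). Cyp51 read 9.16, 8.34 and 8.89 (-2.69 ± 0.27, adjusted p = 0.00417). Sqle, which had not been called at 24 h, read 8.82, 8.49 and 7.39 (-2.32 ± 0.48, adjusted p = 0.0287), a call lost without sham A, sham B, 24 h B or 48 h B (adjusted p from 0.0514 to 0.0991). Ebp read 11.57, 11.27 and 11.78 (-1.87 ± 0.16, adjusted p = 0.00356). Tm7sf2 read 11.13, 11.27 and 11.29, and every 48 h array lay below every sham and 24 h array (-1.51 ± 0.08, adjusted p = 8.21e-04).

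Other synthesis genes stood between their 24 h level and sham. Idi1 read 11.62, 10.20 and 11.56 at 48 h (-2.80 ± 0.49 from sham, adjusted p = 0.0162), a call lost without sham B (adjusted p = 0.0625). Dhcr7 read 10.59, 10.28 and 9.72 (-2.13 ± 0.26, adjusted p = 0.00687) and Sc5d read 12.61, 12.10 and 12.17 (-1.23 ± 0.20, adjusted p = 0.0133). Hmgcs1 read 13.49, 12.41 and 12.31 (-1.62 ± 0.38, adjusted p = 0.0407), and that call held only without sham C or 48 h A: leaving out any other array gave an adjusted p from 0.064 to 0.126. Msmo1 read 12.25, 11.02 and 11.44 (-1.82 ± 0.40, adjusted p = 0.0331), with the call lost without sham A or B, 24 h B or C, or 48 h B or C (adjusted p from 0.0556 to 0.106). Fdft1 read 10.66, 10.76 and 10.78 (-1.64 ± 0.32, adjusted p = 0.0241), with the call lost without sham A or B or 48 h A or B (adjusted p from 0.0568 to 0.0879).

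Pmvk read 8.21, 8.18 and 8.35 at 48 h (-1.70 ± 0.30, adjusted p = 0.0171), a call lost without sham B or 48 h A (adjusted p = 0.0656 and 0.0564). Lss read 9.26, 8.91 and 8.51 (-1.97 ± 0.33, adjusted p = 0.0144), a call lost without sham B (adjusted p = 0.056). The 4 synthesis genes not called at 48 h were Mvk, Mvd, Ggps1 and Hsd17b7. Hsd17b7 read 9.85, 9.40 and 9.58, which overlapped sham (-0.63 ± 0.30, adjusted p = 0.247). Ggps1 read 7.43, 7.64 and 7.24, above every sham reading, with a difference of 0.68 ± 0.19 (adjusted p = 0.0632).

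Insig1 and Stard4 were the control and transport genes still called lower at 48 h. Scap (-0.67 ± 0.20, adjusted p = 0.0828) and Npc1 (-1.11 ± 0.42, adjusted p = 0.151) were not called, though every 48 h array lay below every sham array. Insig1 read 10.91, 11.02 and 11.46 (-1.87 ± 0.25, adjusted p = 0.0079) and Stard4 9.27, 9.27 and 8.19 (-2.67 ± 0.31, adjusted p = 0.00593). Abcg5 was the one gene higher than sham, at 12.00, 12.15 and 11.97 (0.84 ± 0.16, adjusted p = 0.0204). Its call was lost without sham A or B or 48 h A or B, with adjusted p from 0.0567 to 0.0762. Insig2 read 12.55, 12.51 and 13.16, above every sham array, and the difference of 1.11 ± 0.34 was not called (adjusted p = 0.0886). Scarb1, Nr1h3, Abca1 and Abcg8 differed from sham by between -0.40 and 0.27 and were not called.

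The difference between 48 h and 24 h livers was tested directly. Of the 30 genes, 12 were higher at 48 h (14.6% of genes tested were) and 2 were lower (13.1%). The higher genes were 7 synthesis genes (Hmgcs1, Idi1, Fdft1, Msmo1, Hsd17b7, Sc5d and Dhcr7), 3 control genes (Insig1, Insig2 and Nr1h3) and 2 transport genes (Scarb1 and Abcg5). Of the 14 calls, 9 held in all 9 fits that left out 1 array. Hmgcs1 was lost without any 1 of the 24 h arrays, Fdft1 without 24 h C, Idi1 without sham B, 24 h B or C or 48 h A or C, Msmo1 without those or 24 h A, and Insig2 without sham B, 24 h C or any 1 of the 48 h arrays, with adjusted p from 0.0506 to 0.11. Dhcr7 rose most among the called genes, by 2.29 ± 0.26 (adjusted p = 0.0013), and Hsd17b7 rose by 1.83 ± 0.30 (adjusted p = 0.00467), while its second probe set gave 0.99 (adjusted p = 0.456). Abcg5 rose by 1.76 ± 0.16 (adjusted p = 6.06e-04), from below sham to above it. Abcg8 read 8.92, 9.29 and 8.59 at 48 h, all above the 24 h arrays, and its difference of 2.81 ± 0.87 was just outside the threshold (adjusted p = 0.0502).

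The pair that went lower between 24 h and 48 h were Tm7sf2 (-1.49 ± 0.08, adjusted p = 1.41e-04) and Ebp (-1.06 ± 0.16, adjusted p = 0.00348). Both encode enzymes between lanosterol and cholesterol, as do Dhcr7, Sc5d, Msmo1 and Hsd17b7, which rose over the same interval. Cyp51 and Nsdhl differed little between the times, by -0.12 (95% interval -0.74 to 0.51) and -0.13 (-1.08 to 0.82). The second Cyp51 set gave 1.18, with 7.86, 6.62 and 6.61 at 24 h and 8.68, 7.90 and 8.05 at 48 h (adjusted p = 0.0623), so the chosen set alone does not settle its course. By the rank product test that the series' design text names, 2 members were called between 48 h and 24 h, and 15 between 24 h and sham. The shares of genes tested given above are those of limma. The shares called by rank product in liver are not given here, so these counts have no baseline beside them.

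**Figure D4:**
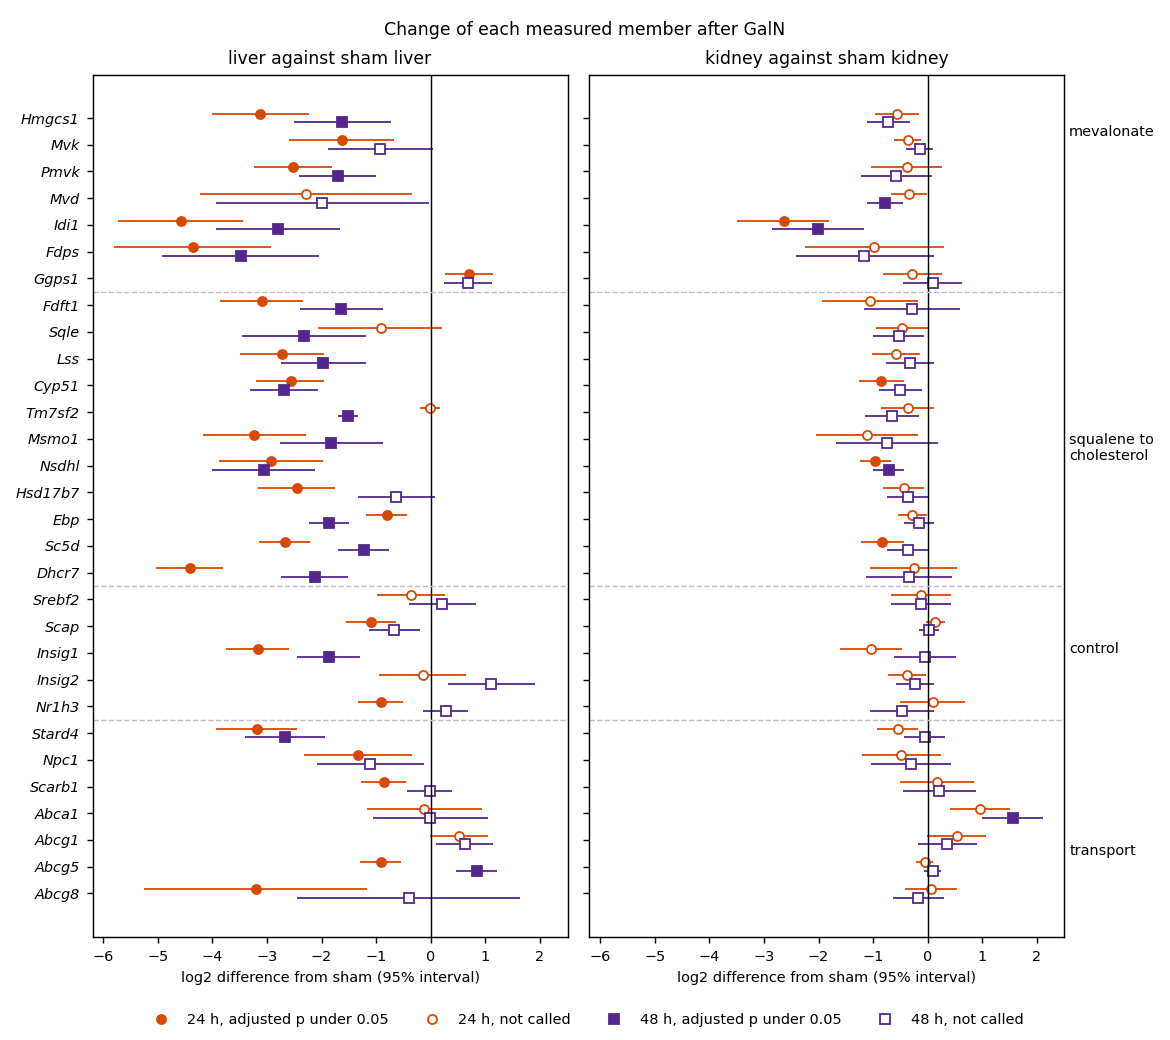
log2 difference from sham with its 95% interval for each of the 30 genes, in liver (left) and kidney (right), at 24 h (circles) and 48 h (squares), with filled symbols for an adjusted p under 0.05. The synthesis genes other than Ggps1 lie to the left of 0 in liver, down to -4.58 for Idi1 at 24 h, and in kidney the lowest is -2.64, also for Idi1 at 24 h.

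Fewer of the genes were called in kidney. At 24 h, 4 of 30 were lower than in sham kidney (3.10% of the 12003 genes tested were) and none was higher (2.21% were), with 1, Abca1, higher at an unadjusted p under 0.05 and 0 by rank product. The 4 were all synthesis genes. All 18 synthesis differences were negative, against 50.6% of genes tested, with a median of -0.52 against -0.00. These 18 differences share the same sham arrays. Without sham B or 24 h B none of the 30 was called. Without sham A 1 was called, and without 24 h A or 48 h B 2 were.

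Idi1 had the largest difference in kidney as in liver. It read 13.00, 12.87 and 12.22 in sham kidney and 10.13, 9.63 and 10.39 at 24 h, a 6.25-fold fall (-2.64 ± 0.36, adjusted p = 0.0198), with no overlap. Its call was lost without sham A or B or 24 h B (adjusted p from 0.0579 to 0.0709), and its other probe set gave a difference of -2.73. Nsdhl went from 11.02, 10.90 and 10.57 to 9.92, 9.88 and 9.82 (-0.96 ± 0.12, adjusted p = 0.0176), a call lost without sham B or 24 h B (adjusted p = 0.0657 and 0.0514). Cyp51 went from 11.86, 11.66 and 11.50 to 10.83, 10.53 and 11.12 (-0.85 ± 0.17, adjusted p = 0.0393), a call that held only without 24 h C: leaving out any other array gave an adjusted p from 0.0572 to 0.123. Sc5d went from 9.67, 9.90 and 9.63 to 8.91, 8.86 and 8.95 (-0.83 ± 0.17, adjusted p = 0.0387), a call that held only without 48 h A or 48 h C, with adjusted p from 0.0661 to 0.129 otherwise. The second Sc5d set gave a larger difference of -2.05, from 7.06, 7.08 and 7.05 to 5.27, 4.97 and 4.80. Another Sc5d set read 5.04 in every kidney array. None of the 4 overlapped between groups. Of the 30, 12 lay below sham in every 24 h array and 2 lay above it. The share of all genes tested in kidney that did so is not given here.

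Several genes that fell in liver gave smaller kidney differences that were not called. Insig1 read 10.70, 10.35 and 9.84 in sham kidney and 9.25, 9.42 and 9.09 at 24 h, with no overlap (-1.04 ± 0.24, adjusted p = 0.0559). Msmo1 differed by -1.11 ± 0.40 (adjusted p = 0.148), Fdft1 by -1.05 ± 0.37 (adjusted p = 0.145) and Hmgcs1 by -0.56 ± 0.17 (adjusted p = 0.106). Dhcr7, which fell most steeply in liver after Idi1, differed by -0.26 ± 0.34 (adjusted p = 0.69), with an interval of -1.05 to 0.54.

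At 48 h, 3 of 30 genes were lower than in sham kidney (1.40% of genes tested were) and 1 was higher (1.29% were). Idi1 read 11.38, 10.34 and 10.34 (-2.01 ± 0.36, adjusted p = 0.0389), Mvd 7.53, 7.31 and 7.14 against 8.24, 8.03 and 8.05 in sham (-0.78 ± 0.14, adjusted p = 0.0394), and Nsdhl 10.16, 9.99 and 10.21 (-0.71 ± 0.12, adjusted p = 0.0352). Abca1 rose, from 8.44, 8.31 and 9.24 in sham to 10.17, 10.12 and 10.37 (1.56 ± 0.24, adjusted p = 0.03). At 24 h Abca1 had read 9.57, 9.52 and 9.76, above every sham array and below every 48 h array (0.95 ± 0.24 from sham, adjusted p = 0.0669). Its other probe sets gave differences of 2.30 and 1.50 at 48 h.

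None of the 4 calls at 48 h in kidney held in every fit that left out 1 array. Abca1 was lost without sham A or B or any 1 of the 48 h arrays (adjusted p from 0.0637 to 0.0991). Mvd was lost without any 1 of the sham or 48 h arrays or 24 h C (0.0516 to 0.129). Idi1 was lost without any 1 of the sham arrays, 24 h A or C, or 48 h B or C (0.0508 to 0.13). Nsdhl was lost without sham A or B, 24 h B or C, or any 1 of the 48 h arrays (0.0517 to 0.117). The number called was 0 without sham A, sham B, 48 h B or 48 h C, 1 without 24 h C or 48 h A, and 2 without sham C. With only the 6 arrays compared it was 0.

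Between 48 h and 24 h in kidney, limma called 0 of the 30 genes (1.61% of genes tested were called in either direction). At an unadjusted p under 0.05 there were 5, namely Mvd, Sc5d, Insig1, Stard4 and Abca1, and rank product called 0. Insig1 differed by 0.99 ± 0.24 (adjusted p = 0.0933), which returned its readings to 10.35, 10.47 and 9.91, in the range of sham. In kidney, the macrophage markers Cd68, Clec4f, Marco and Cd163 were at the floor in all groups, and 0 of 13 tested macrophage markers were called at either time, with 0 at 24 h and 1 at 48 h at an unadjusted p under 0.05 and 0 by rank product.

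The liver and kidney responses were compared in a fit of all 18 arrays. At 24 h, 20 of 30 genes changed more negatively in liver (13.8% of the 12467 genes tested did) and 1 more positively (16.5% did). Dhcr7 had the largest difference between tissues, -4.17 ± 0.44 (adjusted p = 1.38e-05), with a liver change of -4.42 and a kidney change of -0.26. Idi1 differed by -1.94 ± 0.62 (adjusted p = 0.0293), having fallen in both. This Idi1 call was lost without liver sham A or B, liver 24 h B, kidney sham C or kidney 24 h A or C (adjusted p from 0.0558 to 0.0727). The gene with the more positive change in liver was Ggps1 (0.98 ± 0.30, adjusted p = 0.0247), a call lost without liver sham A or kidney sham B (adjusted p from 0.0524 to 0.0611). The calls for Mvk, Scarb1 and Nr1h3 were lost in 13, 7 and 6 of the 18 fits that left out 1 array, with adjusted p up to 0.1, 0.0836 and 0.0654. The other 16 calls held in all 18 fits.

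At 48 h, 10 genes changed more negatively in liver (4.68% of genes tested did) and 2 more positively (8.41% did). Of the 10, 8 were genes from squalene to cholesterol (Sqle, Lss, Cyp51, Tm7sf2, Nsdhl, Ebp, Sc5d and Dhcr7), and the others were Insig1 and Stard4. The calls for Lss, Cyp51, Nsdhl, Ebp, Dhcr7, Insig1 and Stard4 held in all 18 fits that left out 1 array. Those for Sqle, Tm7sf2 and Sc5d were lost in 13, 4 and 14 of the 18, with adjusted p up to 0.0921, 0.0635 and 0.108. None of the 7 mevalonate genes was called, with differences from -2.32 (Fdps, adjusted p = 0.0852) to 0.59. Fdps had an unadjusted p of 0.0147 and Pmvk of 0.0176, and rank product was not run on this contrast. The pair with the more positive change in liver were Insig2 (1.35 ± 0.38, adjusted p = 0.032) and Abcg5 (0.76 ± 0.19, adjusted p = 0.02), and Abcg5 lay at the floor in kidney throughout. The Insig2 call was lost in 8 of the 18 fits (adjusted p up to 0.0768), and the Abcg5 call without kidney sham B or kidney 48 h C (0.0526 to 0.0533).

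Other genes of sterol biology were read from a list of 41, of which 35 had a named set. In liver at 24 h, 15 of the 33 tested fell (15.0% of all genes tested did) and 2 rose (17.9% did). All 5 further genes known to respond to SREBP or sterol fell: Acss2, an acetyl-CoA synthetase, by 3.53 from 12.99 to 9.46, Srebf1, the gene of the fatty acid regulator SREBP1, by 3.47 from 12.00 to 8.53, and Aacs, Tmem97 and Rdh11 with differences from -2.54 to -2.05. The proteases that cut SREBP, Mbtps1 and Mbtps2, fell by 0.92 and 0.81. Nus1, a subunit of the enzyme that makes dolichol, rose by 1.40 (adjusted p = 2.76e-04), and Rnf139, an endoplasmic reticulum ubiquitin ligase, by 0.46.

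At 48 h, 7 of those 33 genes were lower than sham liver (3.94% of all genes tested were). Cyp7b1 and Cyp27a1, hydroxylases that turn sterols into oxysterols and bile acid precursors, differed by -2.26 and -0.96. Acss2, Aacs, Rdh11 and Tmem97 were still lower, and Lcat, which esterifies cholesterol in plasma, differed by -0.63. None was higher (6.24% of all genes were), with Lipa and Nus1 higher at an unadjusted p under 0.05 and 0 by rank product. In kidney, limma called 0 of the 32 tested at either time (3.10% of all genes were lower and 2.21% higher at 24 h, 1.40% and 1.29% at 48 h). At an unadjusted p under 0.05 there were 7 at 24 h and 6 at 48 h, and rank product called 0 and 1 (Mylip).

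Most genes of the module were read by more than 1 probe set. Of the 30, 11 had 1 set and 19 had several, 65 sets in all, and the set with the highest mean stood for the gene. For the genes called in liver at 24 h, 19 of 20 other sets above the floor had the same sign, and at 48 h 12 of 12 did. The exception at 24 h was a set of Ggps1, at -0.1, while the other sets of that gene gave 1.79 and 0.94. In kidney the counts were 4 of 5 at 24 h and 4 of 4 at 48 h. The kidney exception was a set of Sc5d that read 5.04 in every kidney array, so it had no sign. In liver the same Sc5d set counts among those that agree. It read 5.61, 6.69 and 5.04 in sham liver and 5.04 in every GalN liver, so that agreement rests on sham A and B. The size differed more than the sign. Among 11 genes called in liver at 24 h that had a second set, the second set moved the fold by over 1.5 times in 5 (Mvk, Ggps1, Lss, Cyp51 and Sc5d), in each to a larger change, Ggps1 to 1.79 and Lss to -3.77.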

How the data were processed

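Total RNA of liver and kidney was hybridised to 18 Affymetrix mouse genome arrays, 3 in each of 6 groups taken from the titles. The authors computed the deposited values as log2 gcRMA values with the R packages affy and gcRMA, per the labels' design text, with no GCRMA version given in the sources used here. Whether each array holds 1 mouse or a pool of 3 is not settled by the labels, and arrays were treated as single animals. Each gene was read from the set named for it alone with the highest mean over the 18 arrays. Of 45101 sets, 64 were controls, 34945 named 1 gene, 932 several and 9160 none. A gene was tested where it exceeded the array median in at least 3 arrays of the fit. The test was limma 3.58.1 (R 4.3.3) on group means with an intensity trend, two-sided, over 9 arrays per tissue or all 18 between tissues. It was also run on simulated data made from these arrays, with an outcome not given here. Genes varied independently there, so that run cannot speak to counts over genes that vary together. Named genes are all members, by role. The members, gene lists and tests were chosen with earlier results of these data known. Alternatives covered the filter, probe set, normalization, moderation, array weighting, a block on the array letter, the arrays fitted, rank product and leaving out each array.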

Additional observations from a re-analysis of the deposited data

Results flagged for a closer look

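Changes that differed between liver and kidney were picked out where the difference itself passed the test (limma on all 18 arrays, adjusted p under 0.05), and each value here is the liver change minus the kidney change on the log2 scale. At 24 h these differences were, for the mevalonate genes, Hmgcs1 -2.56, Mvk -1.26, Pmvk -2.14, Idi1 -1.94 and Fdps -3.38. For the genes from squalene to cholesterol they were Fdft1 -2.05, Lss -2.15, Cyp51 -1.73, Msmo1 -2.12, Nsdhl -1.97, Hsd17b7 -2.03, Sc5d -1.84 and Dhcr7 -4.17. For control and transport they were Scap -1.24, Insig1 -2.13, Nr1h3 -1.02, Stard4 -2.64, Scarb1 -1.03, Abcg5 -0.86 and Abcg8 -3.27. Of these, the calls for Mvk, Idi1, Nr1h3 and Scarb1 were lost in 13, 6, 6 and 7 of the 18 fits that left out 1 array. Ggps1, at 0.98, was the only one of the 30 with a called difference above 0 at 24 h. At 48 h the differences were Sqle -1.79, Lss -1.64, Cyp51 -2.19, Tm7sf2 -0.86, Nsdhl -2.35, Ebp -1.70, Sc5d -0.87, Dhcr7 -1.80, Insig1 -1.82 and Stard4 -2.62, and above 0 Insig2 1.35 and Abcg5 0.76. Since Abcg5 and Abcg8 were at the floor in kidney, their differences are in effect those of liver.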

How the results depend on the processing

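Of 6780 values of single genes under the alternatives, 101 had the opposite sign to the value reported, none of them for a gene called in that comparison. In 100 neither value was called, among them Cyp51 between 48 h and 24 h in liver (1.18 from the second probe set), Hsd17b7 in kidney at 24 h (0.24) and Srebf2 in liver at 48 h (-0.41). The other was Cyp51, not called between sham liver and sham kidney at -0.19 and higher in liver by 0.65 with the mean of all probe sets. The number of the 30 genes called in liver at 24 h was 23, and it fell to 15 by rank product and lay between 19 and 23 with 1 array left out. In liver at 48 h it was 17, with 10 in a fit of only the 6 arrays compared and 8 to 19 with 1 array left out. Between 48 h and 24 h in liver it was 14, with 2 by rank product and 10 to 15 with 1 array left out. In kidney at 24 h it was 4, with 2 without a filter, 7 under median centring, 2 with only the 6 arrays compared, 1 by rank product and 0 to 4 with 1 array left out. In kidney at 48 h it was 4, with 0 without a filter, 2 from the mean of all probe sets, 1 from the second probe set, 2 in a fit of all 18 arrays, 0 with only the 6 arrays compared and 0 to 3 with 1 array left out. Between 48 h and 24 h in kidney it was 0, with 1 from the mean of all probe sets, from the second probe set and under median centring, and 0 to 0 with 1 array left out. For the difference between tissues it was 21 at 24 h, with 17 to 22, and 12 at 48 h, with 8 to 14 with 1 array left out and 19 with array weights. For sham liver against sham kidney it was 26, with 23 to 26. These counts are given without the share of all genes called under the same alternative, which can also differ from the limma share. The cause of these changes was not tested. A fit without 1 array estimates the spread from fewer arrays. Median centring moved the median of all genes by -0.16 in liver at 24 h, by -0.11 at 48 h and by 0.32 between the sham organs. With a mouse shared across organs as a random block, added after the data were seen, 21 genes differed between tissues at 24 h and 13 at 48 h.

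The array letters were shared by the groups, but the deviations of same-lettered arrays within an organ correlated at -0.13 to 0.23. The letters were therefore not taken to pair arrays within an organ. That check does not show whether a letter names the same mouse in both organs. Between sham liver and sham kidney, same letters gave 0.22 (A), 0.03 (B) and 0.25 (C), and other letters -0.24 to 0.06. At 24 h, same letters gave -0.06 to 0.02 and other letters -0.05 to 0.06. At 48 h they gave 0.01 to 0.08 and -0.10 to 0.03. Sharing of mice was not settled, and the main fits between tissues treated the arrays as independent. With the letter as a replicate block, 21 members were called in liver at 24 h, 15 at 48 h, 2 in kidney at 24 h and 2 at 48 h. The share of all genes called in those fits is not given here.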
